A study of Mus musculus with 25 samples.

Results

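The 10 genes described here encode the main components of the basement membrane and were taken by name: Col4a1, Col4a2, Col4a3, Col4a4, Lama4, Lamb1, Lamc1, Nid1, Nid2 and Hspg2. All 10 were found among the 47729 genes of the bulk count table and among the 31053 features of the single-cell matrices, and all 10 passed the filter on low counts that left 15773 genes for testing.

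The basement membrane is a thin sheet of extracellular matrix on which epithelial and endothelial cells rest and which also wraps pericytes and muscle cells. It is built from a collagen IV network and a laminin network, with nidogens and perlecan bound to both. Each collagen IV molecule is a triple helix of α chains: Col4a1 and Col4a2 encode the chains of the widespread network, and Col4a3 and Col4a4 encode chains of a second network that is known from the glomerular and alveolar basement membranes. Laminins are trimers of an α, a β and a γ chain, and Lama4, Lamb1 and Lamc1 encode the chains of laminin-411. Nid1 and Nid2 encode the nidogens, which link laminin to collagen IV, and Hspg2 encodes perlecan, a heparan sulfate proteoglycan.

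The libraries came from Lin- cells of the lung, labelled primary lung fibroblasts and obtained by sorting away cells that carry CD45 (blood cells), CD31 (endothelium) or CD326 (epithelium). Every mouse, naive mice included, was Col1a1-Cre-ERT2;Fas fl/fl. Fas+/+ mice received bleomycin and then corn oil, and Fas-/- mice received bleomycin and then tamoxifen, so that Fas deletion and tamoxifen cannot be told apart. The Cre recombinase was driven by the Col1a1 promoter, which directs deletion to cells in which that promoter is active, and no age of the mice is given here. Bulk RNA-seq held 20 libraries in 5 groups of 4: a naive group, and for each genotype a group 3 weeks and a group 6 weeks after bleomycin. Single-cell RNA-seq held 5 libraries, 1 for each of these conditions, each from pooled mice.

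Total counts of the bulk libraries ranged from 11819700 to 25189096, with a median of 20122870. Fas itself, counted over all exons and so not a check of the floxed exon, lay at 21.1 to 23.9 counts per 1000000 (CPM) in naive libraries and at 26.1 to 64.9 CPM after bleomycin. Fas-/- and Fas+/+ libraries differed in it by 0.11 on the log2 scale at 3 weeks (adjusted p = 0.91) and by 0.36 at 6 weeks (adjusted p = 0.719). The summed level of 12 endothelial markers was highest in replicate 1 of the Fas+/+ group at 3 weeks (11772 CPM) and replicate 4 of the Fas-/- group at 3 weeks (10398 CPM). None of the 12 was at 0 in any library. Their sum was 229 to 568 CPM in naive libraries, against 3256 CPM or more in every Fas+/+ library at 3 weeks. The 2 libraries named above and replicate 2 of each 6-week group, the highest of their groups, are left out together where stated. In bulk RNA, fewer cells of a type and less RNA per cell cannot be told apart.

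The genes of the 4 collagen IV chains stand in divergent pairs. In GRCm38, Col4a1 lies on the minus strand of chr8:11198423-11312826 and Col4a2 on the plus strand of chr8:11312805-11449287, with start sites 21 bp apart. Col4a3 lies on the plus strand of chr1:82586921-82722059 and Col4a4 on the minus strand of chr1:82448423-82586849, with start sites 72 bp apart. The promoter windows below run from 250 bases before to 50 bases after the annotated start (RefSeq, GRCm38.p6, strand of the gene) and are shown because each pair moved together across these libraries while the pairs moved differently from each other. Capitals mark matches, on either strand, to the letters GGGCGG (called the GC box here), the letters CCAAT (the CCAAT box), the letters TATAAA (the TATA box) or the letters CCCTCCC (the CT-rich element).

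Col4a1, chr8:11312777-11313076, minus strand: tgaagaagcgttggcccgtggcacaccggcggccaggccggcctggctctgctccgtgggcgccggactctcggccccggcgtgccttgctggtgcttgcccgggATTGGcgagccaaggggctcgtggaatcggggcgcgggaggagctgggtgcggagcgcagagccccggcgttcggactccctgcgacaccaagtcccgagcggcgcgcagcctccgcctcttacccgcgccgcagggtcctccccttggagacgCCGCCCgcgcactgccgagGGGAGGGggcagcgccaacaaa
Col4a2, chr8:11312555-11312854, plus strand: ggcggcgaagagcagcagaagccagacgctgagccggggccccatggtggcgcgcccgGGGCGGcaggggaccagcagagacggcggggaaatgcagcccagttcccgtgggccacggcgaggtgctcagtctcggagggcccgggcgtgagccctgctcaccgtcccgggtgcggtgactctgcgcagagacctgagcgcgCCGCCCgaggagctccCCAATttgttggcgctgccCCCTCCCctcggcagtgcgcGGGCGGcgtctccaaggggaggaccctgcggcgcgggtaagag
Col4a4, chr1:82586800-82587099, minus strand: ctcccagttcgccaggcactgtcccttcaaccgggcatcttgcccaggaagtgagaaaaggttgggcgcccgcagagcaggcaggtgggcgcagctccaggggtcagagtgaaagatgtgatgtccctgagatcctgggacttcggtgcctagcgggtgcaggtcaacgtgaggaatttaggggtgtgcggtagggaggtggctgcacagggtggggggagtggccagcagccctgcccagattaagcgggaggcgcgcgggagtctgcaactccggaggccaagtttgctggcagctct

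The Col4a1 and Col4a2 windows overlap on opposite strands, and each held a GC box (1 match for Col4a1 and 3 for Col4a2), 1 CCAAT box and 1 CT-rich element but no TATA box. The GC box and CT-rich element of the Col4a1 window are the same bases as 1 GC box and the CT-rich element of the Col4a2 window. Both lie after the annotated Col4a1 start. The Col4a4 window held none of the 4 motifs. Of all 32851 windows of this length, 35.7% held the GC box, 37.4% the CCAAT box, 22% the CT-rich element and 13.6% the TATA box. Windows were given for 6 of the 10 members, and a match is a description of letters, not of a bound site.

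Set per length (RPKM, over the union of exons), collagen IV of the widespread network was the most abundant of these transcripts in naive libraries. Col4a1 reached 297 ± 40.3 RPKM (SD, n = 4) and Col4a2 223 ± 30.3 RPKM, followed by Lamc1 at 186 ± 14.8 RPKM. Hspg2 (127 ± 13.1 RPKM), Nid1 (119 ± 24.6 RPKM) and Lamb1 (118 ± 6.29 RPKM) came next, and these 3 did not differ beyond their spread. Lama4 stood at 72.6 ± 3.50 RPKM and Nid2 at 14.5 ± 3.20 RPKM. The chains of the alveolar and glomerular network were the least abundant, Col4a4 at 5.02 ± 1.48 RPKM and Col4a3 at 3.05 ± 0.473 RPKM.

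**Figure D1:**
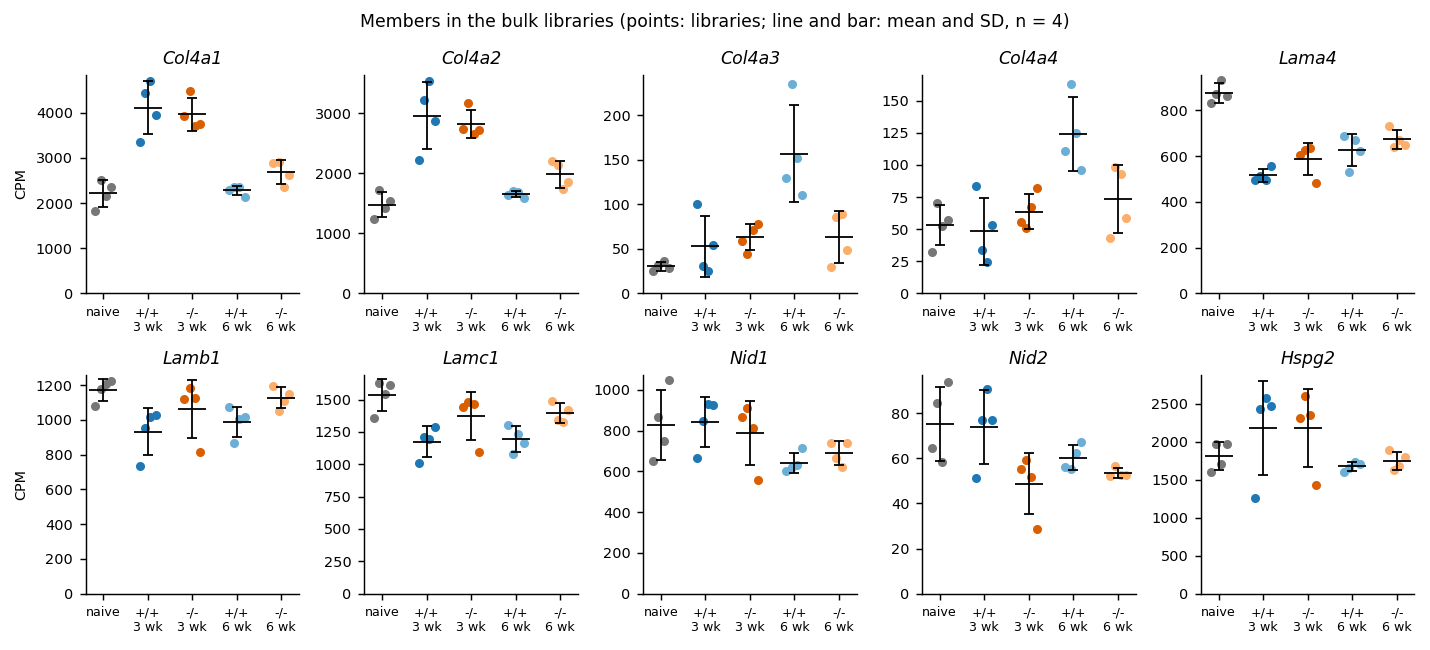
CPM of the 10 members in the 20 bulk libraries, by group. Each point is a library and each bar the mean and SD of 4 libraries; Col4a1 and Col4a2 are highest at 3 weeks, Col4a3 and Col4a4 are highest in Fas+/+ libraries at 6 weeks, and Lama4 is highest in naive libraries.

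Col4a1 and Col4a2 rose together at 3 weeks after bleomycin, in both genotypes, and had fallen again at 6 weeks. Col4a1 was measured at 1822, 2520, 2162 and 2363 CPM in the naive libraries (replicates 1 to 4). At 3 weeks it reached 3357, 4435, 4696 and 3960 CPM in Fas+/+ libraries and 3928, 4477, 3697 and 3740 CPM in Fas-/- libraries. All 8 libraries at 3 weeks were above all 4 naive libraries.

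The fitted difference of Col4a1 at 3 weeks was 0.89 on the log2 scale in Fas+/+ mice (SE 0.12, 1.86-fold; edgeR quasi-likelihood adjusted p = 2.85e-05) and 0.84 in Fas-/- mice (1.79-fold; adjusted p = 9.25e-05). At 6 weeks the Col4a1 libraries lay at 2280, 2348, 2356 and 2132 CPM in Fas+/+ mice and at 2889, 2911, 2348 and 2615 CPM in Fas-/- mice. The Fas+/+ libraries were back inside the naive range, whereas 3 of the 4 Fas-/- libraries were above it. Col4a1 was not called between these Fas-/- libraries and naive libraries (edgeR adjusted p = 0.182, exact permutation p = 0.0857). Between 3 and 6 weeks Col4a1 fell by 0.85 in Fas+/+ mice (adjusted p = 0.000193) and by 0.56 in Fas-/- mice (adjusted p = 0.0101). The latter call was lost without replicate 3 of the 6-week Fas-/- group. These falls were not called different from each other (genotype-by-time interaction, edgeR adjusted p = 0.737).

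Col4a2 followed its partner. The naive libraries lay at 1239, 1715, 1419 and 1542 CPM, the Fas+/+ libraries at 3 weeks at 2222, 3223, 3529 and 2867 CPM, and the Fas-/- libraries at 3 weeks at 2744, 3164, 2647 and 2720 CPM. Again no library at 3 weeks reached down to the naive range. The rise was 1.00 in Fas+/+ mice (SE 0.13, 2.00-fold; edgeR adjusted p = 2.09e-05) and 0.93 in Fas-/- mice (1.91-fold; adjusted p = 7.83e-05). At 6 weeks the libraries lay at 1631, 1699, 1686 and 1583 CPM in Fas+/+ mice and at 2201, 2131, 1734 and 1853 CPM in Fas-/- mice. The 6-week Fas-/- libraries were all above the naive range, and the fitted difference was 0.42 (edgeR adjusted p = 0.0612, exact permutation p = 0.0286, the smallest that 4 against 4 can give). Without naive replicate 2 this difference was 0.50 (adjusted p = 0.04997), and DESeq2 gave 0.41 (adjusted p = 0.0214). From 3 to 6 weeks Col4a2 fell by 0.84 in Fas+/+ mice (edgeR adjusted p = 0.00033) and by 0.51 in Fas-/- mice (adjusted p = 0.0224). The latter call was lost without replicate 2 of the 3-week Fas-/- group or without replicate 3 or 4 of the 6-week Fas-/- group. The genotype-by-time interaction of Col4a2 was not called (edgeR adjusted p = 0.716).

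Over the 20 libraries the log2 CPM of Col4a1 and Col4a2 correlated with Pearson's r = 0.99, and with r = 0.973 after group means were removed. These libraries share their depth and cell composition, so the values are descriptions. The 5 other genes most like Col4a1 among 15763 compared were Fam129b (r = 0.954), Tgfb1 (0.953), Chaf1b (0.951), Spats2 (0.95) and Sept9 (0.95). The summed CPM of 9 profibrotic fibroblast markers, such as Cthrc1 and Postn, ranged over 16803 to 24758 in naive libraries, 14023 to 68559.6 (Fas+/+) and 24822 to 58985 (Fas-/-) at 3 weeks, and 17871 to 23443 and 22858 to 33222 at 6 weeks. None of the 9 was at 0 in any library. The list's mean log2 CPM, as in each r with a list, correlated with Col4a1 at r = 0.875 (0.648 within groups). All 12 endothelial, 6 lymphatic endothelial and 7 alveolar type II markers were called higher in Fas+/+ mice at 3 weeks (22.1% of all genes). Their r with Col4a1 was 0.590, 0.722 and 0.692 (-0.082, 0.117 and -0.001 within groups). Under other settings, marker covariates among them, the Col4a1 rise ran from 0.89 to 1.11 in Fas+/+ and 0.83 to 1.07 in Fas-/- mice. The covariates differed between groups. Whether any of these lists accounts for the rise was not tested.

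Col4a3 and Col4a4 did not follow Col4a1 and Col4a2. Col4a3 was measured at 25.2, 32.3, 35.9 and 28.2 CPM in naive libraries and at 130, 235, 152 and 111 CPM in Fas+/+ libraries at 6 weeks. All 4 of the latter were above every naive library, by a fitted 2.37 on the log2 scale (SE 0.402, 5.17-fold; edgeR adjusted p = 0.00168). The Fas-/- libraries at 6 weeks lay at 29.3, 85.9, 89.1 and 48.2 CPM and overlapped the naive range (difference 1.05, adjusted p = 0.12).

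At 3 weeks Col4a3 was uneven in Fas+/+ libraries, at 100.3, 31.1, 25.7 and 54.0 CPM (difference from naive 0.80, edgeR adjusted p = 0.107; without replicate 3 it was 1.02, adjusted p = 0.0472). In Fas-/- libraries it was 58.3, 44.7, 70.9 and 78.3 CPM (difference 1.05, SE 0.389, 2.07-fold; adjusted p = 0.0464). All 4 Fas-/- libraries were above the naive range, but leaving out any 1 of 7 of the 8 libraries compared ended this call. From 3 to 6 weeks Col4a3 rose by 1.57 in Fas+/+ mice (2.97-fold; edgeR adjusted p = 0.00801).

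Col4a4 lay at 32.6, 70.6, 52.5 and 57.4 CPM in naive libraries and at 111, 163, 125 and 96.3 CPM in Fas+/+ libraries at 6 weeks. The groups did not overlap, and the difference was 1.22 (SE 0.336, 2.32-fold; edgeR adjusted p = 0.0412). The call was lost in 5 of the 8 fits that left out 1 library: without naive replicate 1, 3 or 4 or without Fas+/+ replicate 2 or 3. At 3 weeks its libraries lay at 83.3, 33.6, 24.3 and 53.1 CPM in Fas+/+ mice and 55.3, 51.0, 67.0 and 81.7 CPM in Fas-/- mice, across the naive range. At 6 weeks the Fas-/- libraries lay at 43.4, 98.7, 92.6 and 58.9 CPM. From 3 to 6 weeks it rose by 1.35 in Fas+/+ mice (2.54-fold; edgeR adjusted p = 0.00831).

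Between genotypes at 6 weeks Col4a3 was lower in Fas-/- than in Fas+/+ libraries by a fitted -1.32 (SE 0.388), every Fas-/- library being below every Fas+/+ library, but the edgeR adjusted p was 0.244 over all genes. DESeq2 gave the same difference an adjusted p of 0.0419. Col4a4 differed by -0.75 (edgeR adjusted p = 0.56). The genotype-by-time interaction was -1.57 for Col4a3 (adjusted p = 0.414) and -1.14 for Col4a4 (adjusted p = 0.569). Without replicate 1 of the 3-week Fas+/+ group the interaction of Col4a3 was -2.08 (adjusted p = 0.0485).

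Markers of alveolar type I epithelial cells moved with both chains. The summed CPM of 8 such markers (Ager, Hopx, Rtkn2, Akap5, Aqp5, Cldn18, Pdpn and Spock2) ranged over 348 to 487 in naive libraries, 343 to 987 in Fas+/+ and 504 to 773 in Fas-/- libraries at 3 weeks, 1097 to 2256 in Fas+/+ libraries at 6 weeks and 353 to 893 in Fas-/- libraries at 6 weeks. In the 6-week Fas+/+ group 7 of the 8 markers were called higher than in naive mice (3.57% of all genes), and none was at 0 in any library. Other lists were called higher there too: 6 of 7 alveolar type II, 5 of 6 general epithelial, 5 of 6 platelet and 4 of 7 hematopoietic markers. Of the endothelial markers 1 of 12 was called higher. Over 20 libraries the log2 CPM of Col4a3 correlated with this list at r = 0.954 (0.883 within groups) and Col4a4 at r = 0.767 (0.688 within groups). The link was not particular to this list. With endothelial markers r was 0.402 for Col4a3 (0.682 within groups) and 0.193 for Col4a4 (0.697 within groups). With mesothelial markers it was 0.234 (0.345) and 0.535 (0.539). From 3 to 6 weeks in Fas+/+ mice 5 of 7 mesothelial markers were called higher (12% of all genes), but none at 6 weeks against naive. With epithelial markers as a covariate in the edgeR fit, the 6-week Fas+/+ difference from naive was 0.15 for Col4a3 (adjusted p = 0.885) and -0.36 for Col4a4. The epithelial covariate was a mean log2 CPM of the 8 alveolar type I markers, 7 alveolar type II markers and 6 general epithelial markers together. The covariate itself differed between these groups. Of the genes most like Col4a3 over the libraries, Wwc1 (r = 0.983), Sema3e (0.975), Eps8l2 (0.969) and Rab11fip1 (0.964) led. Col4a3 and Col4a4 correlated with each other at r = 0.911, and at 0.930 within groups. Of the Col4a3 exon bases, 5.65% are shared with an opposite-strand gene, C430014B12Rik, and the strand setting of the authors' counting is not given in the sources used here.

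**Figure D2:**
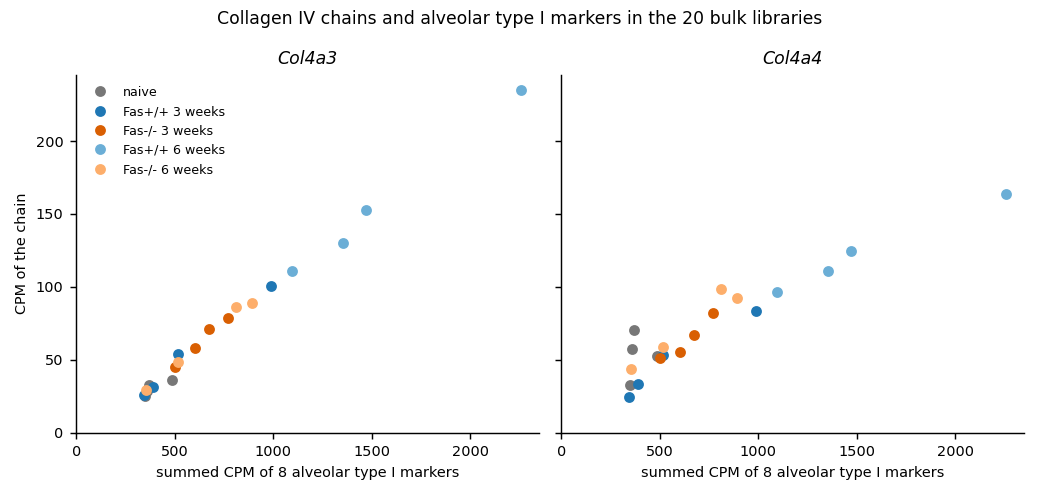
CPM of Col4a3 (left) and Col4a4 (right) against the summed CPM of 8 alveolar type I markers, 1 point for each of the 20 bulk libraries, coloured by group. The 4 Fas+/+ libraries at 6 weeks have the highest marker sums, 1097 to 2256 CPM, and the highest Col4a3.

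Lama4, the α chain of laminin-411, fell after bleomycin in every group. It was measured at 834, 872, 934 and 863 CPM in naive libraries, and at 498, 513, 496 and 556 CPM in Fas+/+ libraries at 3 weeks. The Fas-/- libraries at 3 weeks lay at 605, 627, 636 and 484 CPM. At 6 weeks it was 689, 531, 669 and 623 CPM in Fas+/+ libraries and 733, 640.2, 672 and 649 CPM in Fas-/- libraries. All 16 libraries after bleomycin were below all 4 naive libraries. Lama4 fell by 0.76 at 3 weeks in Fas+/+ mice (SE 0.0928; edgeR adjusted p = 1.07e-05) and by 0.57 in Fas-/- mice (adjusted p = 0.000268). At 6 weeks it fell by 0.48 in Fas+/+ mice (adjusted p = 0.00457) and by 0.38 in Fas-/- mice (adjusted p = 0.0206).

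The Lama4 call at 6 weeks in Fas-/- mice was lost without naive replicate 3 or without Fas-/- replicate 2 or 4, and the 3 calls other than that of Fas+/+ mice at 3 weeks were lost with epithelial markers as a covariate. From 3 to 6 weeks Lama4 rose by 0.28 in Fas+/+ mice (edgeR adjusted p = 0.0341), with groups that overlapped, and 5 of 8 fits without 1 library lost the call. Pericyte markers also fell at 3 weeks: the summed CPM of 8 such markers, none at 0 in any library, ranged over 2975 to 4062 in naive libraries, 1922 to 2334 (Fas+/+) and 1298 to 2549.9 (Fas-/-) at 3 weeks, and 2640.1 to 3637 and 1976 to 3007 at 6 weeks. At 6 weeks both groups overlapped the naive range, and no pericyte marker was called. The sum of 8 lipofibroblast markers was 9307 to 10905 in naive libraries, 3134 to 5274 and 5121 to 6790 at 3 weeks, and 6870 to 8515 and 7455 to 9075 at 6 weeks. Median differences at 3 weeks in Fas+/+ mice were -0.83 (pericyte), -1.20 (lipofibroblast), -0.80 (Col14a1 fibroblast), -0.88 (vascular smooth muscle) and -0.64 (airway or ductal myofibroblast). They were -1.03 (mesothelial), -6.49 (erythroid) and -0.28 (Schwann). Medians above 0 were 1.55 (profibrotic fibroblast), 4.56 (endothelial), 4.72 (lymphatic endothelial), 3.75 (hematopoietic), 5.35 (platelet) and 2.59 (cycling). Epithelial medians were 1.34 (alveolar type I), 6.03 (alveolar type II), 1.08 (general epithelial) and 1.76 (airway). Over the 20 libraries r with Lama4 was 0.792 for pericyte markers and -0.866 for endothelial markers. With endothelial markers as a covariate all 4 differences of Lama4 from naive kept their calls, from -0.49 to -0.31. The covariate itself differed between these groups. The part of pericyte, lipofibroblast or other markers in the fall was not tested.

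Lamb1 and Lamc1, the β and γ chains, fell less. In Fas+/+ mice at 3 weeks Lamc1 was measured at 1011, 1214, 1195 and 1285 CPM, against 1362, 1630.5, 1543 and 1611 CPM in naive libraries. It fell by 0.39 on the log2 scale (SE 0.104; edgeR adjusted p = 0.00664), and the call was lost with endothelial or epithelial markers as a covariate. Lamb1 was measured at 732, 954, 1013 and 1025 CPM in these Fas+/+ libraries and 1082, 1177, 1204 and 1222 CPM in naive libraries. It fell by 0.33 (SE 0.117; adjusted p = 0.031), a call lost in 5 of 8 fits without 1 library. These were Fas+/+ replicates 1 and 2 and naive replicates 2, 3 and 4. With these covariates the difference of Lamb1 was 0.067 (endothelial) and 0.14 (epithelial).

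In Fas-/- libraries at 3 weeks neither chain was called, and replicate 4 stood below the other 3 libraries in both: Lamb1 was 1119, 1180.0, 1128 and 813 CPM and Lamc1 1439, 1481, 1467 and 1093 CPM. This replicate also had the highest endothelial marker sum of its group. At 6 weeks Lamc1 lay at 1306, 1076, 1237 and 1165 CPM in Fas+/+ libraries, all below the naive libraries (difference -0.36, edgeR adjusted p = 0.0501). DESeq2 gave -0.37 (adjusted p = 0.00757), and without Fas+/+ replicate 1 the edgeR difference was -0.41 (adjusted p = 0.0413). In Fas-/- libraries it lay at 1492, 1339, 1330 and 1416 CPM, and the genotype difference was 0.22 (adjusted p = 0.605). At 6 weeks Lamb1 ran from 867 to 1071 CPM in the Fas+/+ group and from 1050.4 to 1193 CPM in the Fas-/- group. Lamb1 and Lamc1 correlated at r = 0.937 over the libraries and 0.938 within groups.

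The nidogens differed from each other. Nid1 had no adjusted p below 0.0748 in the edgeR fit. Its libraries ran from 652 to 1049 CPM in naive mice, 667 to 929 CPM and 558 to 910.5 CPM in Fas+/+ and Fas-/- mice at 3 weeks, and 600.3 to 713 CPM and 619 to 740.0 CPM at 6 weeks. The largest of its differences from naive was -0.37 in Fas+/+ mice at 6 weeks (edgeR adjusted p = 0.193). Its difference between 3 and 6 weeks in Fas+/+ mice was -0.39 (6 minus 3 weeks; edgeR adjusted p = 0.0748). That difference was called by DESeq2 (-0.40, adjusted p = 0.0455), with endothelial markers as a covariate (-0.57, adjusted p = 0.0122), without the 4 libraries of high endothelial markers (-0.47, adjusted p = 0.0114) and without 3-week Fas+/+ replicate 1 (-0.49, adjusted p = 0.0222).

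Nid2 was measured at 64.6, 84.2, 58.3 and 93.7 CPM in naive libraries and at 55.0, 59.4, 51.7 and 28.8 CPM in Fas-/- libraries at 3 weeks. The groups overlapped slightly, and Nid2 fell by 0.62 (SE 0.196; edgeR adjusted p = 0.0218; exact permutation p = 0.0571). The call was lost without naive replicate 2, naive replicate 4 or Fas-/- replicate 4. In Fas+/+ libraries at 3 weeks Nid2 was 51.2, 76.7, 90.6 and 77 CPM, and the genotype difference was -0.60 (adjusted p = 0.307). Without the 4 libraries of high endothelial markers this difference was -0.56 (adjusted p = 0.0206). At 6 weeks Nid2 ran from 55.2 to 67.1 CPM in the Fas+/+ group and from 51.9 to 56.8 CPM in the Fas-/- group (difference of Fas-/- from naive -0.49, adjusted p = 0.151). Of the Nid2 exon bases, 8.45% are shared with the opposite-strand gene Rtraf.

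Hspg2, which encodes perlecan, had no adjusted p below 0.146 in the edgeR fit. It was measured at 1596, 1970.1, 1711 and 1964 CPM in naive libraries. At 3 weeks it was 1261, 2429, 2579 and 2465 CPM in Fas+/+ libraries and 2311, 2602, 2355 and 1430.3 CPM in Fas-/- libraries. In each of these groups 3 libraries were above the naive range and 1 below it, and the low library was the one with the highest endothelial marker sum. The fitted differences were 0.27 (edgeR adjusted p = 0.266) and 0.26 (adjusted p = 0.3). Without the 4 libraries of high endothelial markers, which include the low library of each 3-week group, they were 0.46 (adjusted p = 0.000239) and 0.41 (adjusted p = 0.00109). With endothelial markers as a covariate they were 0.78 (adjusted p = 0.0207) and 0.58 (adjusted p = 0.0297). The endothelial marker sums of both 3-week groups did not overlap those of naive libraries, so this fit cannot separate the covariate from the group. Without Fas+/+ replicate 1 alone the Fas+/+ difference was 0.46 (adjusted p = 0.0139). In Fas+/+ mice the 6-week Hspg2 level differed from that at 3 weeks by -0.38 (adjusted p = 0.146), and without 3-week Fas+/+ replicate 1 by -0.57 (adjusted p = 0.00504). At 6 weeks Hspg2 ran from 1597 to 1738 CPM in the Fas+/+ group and from 1626 to 1884 CPM in the Fas-/- group. Within groups r between Hspg2 and the profibrotic marker list was 0.960.

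**Figure D3:**
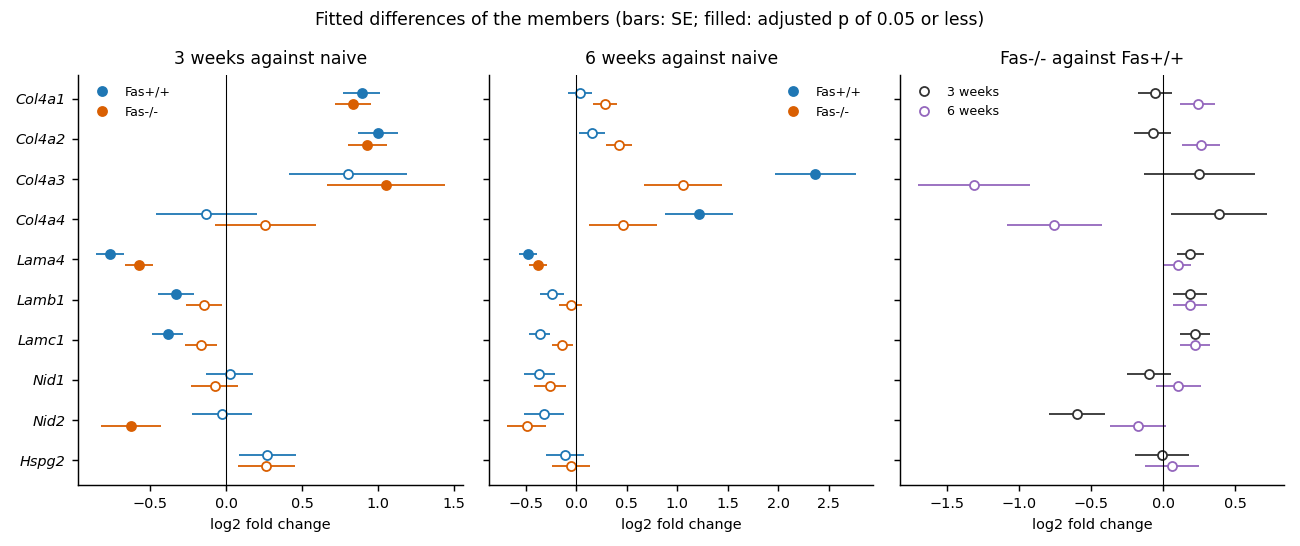
Fitted log2 fold changes of the 10 members with their SE, for 3 weeks against naive, 6 weeks against naive, and Fas-/- against Fas+/+ at both weeks. Filled points have an adjusted p of 0.05 or less; none of the genotype points is filled.

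Counted over the 10 members, 5 were called at 3 weeks in Fas+/+ mice against naive (2 higher, 3 lower), where 41.3% of all genes tested were called (22.1% higher, 19.2% lower). In Fas-/- mice at 3 weeks 5 were called (3 higher, 2 lower), against 32% of all genes (17.2% higher, 14.8% lower). At 6 weeks 3 were called in Fas+/+ mice (Col4a3 and Col4a4 higher, Lama4 lower) against a background of 5.31% (3.57% higher, 1.74% lower). At 6 weeks in Fas-/- mice Lama4 alone was called, against 6.48% (3.66% higher, 2.81% lower). The median log2 difference of the members in these 4 comparisons was -0.00, 0.09, -0.18 and -0.05, beside 0.01, 0.02, 0.00 and 0.01 over all genes tested. These comparisons share the naive libraries.

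From 3 to 6 weeks 5 members were called in Fas+/+ mice (3 higher, 2 lower), against 22.9% of all genes (12% higher, 10.9% lower). In Fas-/- mice 2 were called, Col4a1 and Col4a2, both lower, against 9.02% (4.48% higher, 4.54% lower). The member medians were -0.13 and 0.01.

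No member was called by edgeR between genotypes at 3 weeks, where 0.171% of all genes were called, at 6 weeks (0.0507%) or in the interaction (0.00634%). At an unadjusted p under 0.05 there were 2, 3 and 2 members, against 8.62%, 8.07% and 7.67% of all genes. DESeq2 called 0, 1 and 0 members, against 1.04%, 1.08% and 0.637%. At 6 weeks Col4a1 and Col4a2 stood higher in Fas-/- libraries by 0.24 (adjusted p = 0.655) and 0.26 (adjusted p = 0.642), and at 3 weeks Lamc1 by 0.22 (adjusted p = 0.571).

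Other basement membrane genes, in a list of 20, divided in the same comparisons. At 3 weeks the Fas+/+ comparison with naive called 7 higher and 6 lower, and the Fas-/- comparison called 6 and 5. Over all genes tested, 22.1% were called higher and 19.2% lower in the first, and 17.2% and 14.8% in the second. Lama5, the α chain of laminins 511 and 521, rose by 1.12 in Fas+/+ mice (adjusted p = 5.53e-05) and by 0.98 in Fas-/- mice (adjusted p = 0.000319). Lama1, the α chain of laminin-111, rose from a naive mean of 0.236 CPM to 27.3 ± 12.7 CPM in Fas+/+ mice and 9.35 ± 7.40 CPM in Fas-/- mice. Smoc1 fell by 1.04 in Fas+/+ mice.

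At 6 weeks 5 of the 20 were called higher in Fas+/+ mice and 6 in Fas-/- mice, against 3.57% and 3.66% of all genes. Lamb3, a laminin β chain of epithelia, rose by 2.86 in Fas+/+ mice, to 42.4 ± 18.1 CPM. Lamb3 rose by 1.48 in Fas-/- mice, to 16.3 ± 6.77 CPM, and Lamc3 by 0.69. Agrn, which encodes agrin, rose by 0.52 in Fas+/+ mice. With epithelial markers as a covariate the calls of Lamb3 and Agrn were lost (Lamb3 0.76 in Fas+/+ and 0.21 in Fas-/- mice, Agrn -0.03). The Lamb3 call in Fas-/- mice was also lost in 4 of 8 fits without 1 library. Lamb3 had its highest mean in the 6-week Fas+/+ group, where the alveolar type I marker sums given above were also highest, whereas Lamc3 was highest in Fas-/- mice at 6 weeks (380 ± 41.2 CPM) and Agrn in Fas-/- mice at 3 weeks (387 ± 48.5 CPM). Hmcn1, which encodes the large matrix protein hemicentin, was the 1 gene of the list called between genotypes at 6 weeks (0.0507% of all genes). Its means were 339 ± 38.7 CPM (Fas+/+) and 529 ± 76.1 CPM (Fas-/-) (difference 0.64, edgeR adjusted p = 0.0371). The call was lost in 7 of 8 fits without 1 library, kept only without Fas+/+ replicate 4, and was lost with the compared groups alone in the fit (adjusted p = 0.155) and with epithelial markers as a covariate (adjusted p = 0.556). From 3 to 6 weeks 8 were called higher and 5 lower in Fas+/+ mice, against 12% and 10.9% of all genes. Lamb2 (0.44) and Ntn4 (0.60) were called higher in Fas-/- mice, against 4.48% of all genes. The call of Ntn4 was lost in 4 of 8 fits without 1 library.

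Of 11 genes of collagen IV assembly and modification, 6 were called at 3 weeks in Fas+/+ mice (5 of them higher) and 4 in Fas-/- mice (3 of them higher). The shares of all genes called in these comparisons were 41.3% and 32%. Pxdn, whose product peroxidasin forms the sulfilimine bonds between collagen IV molecules, rose from 185 ± 28.2 CPM in naive libraries to 550 ± 57.3 CPM in Fas+/+ libraries (difference 1.57, edgeR adjusted p = 1.32e-06) and 423 ± 75.7 CPM in Fas-/- libraries (1.19, adjusted p = 3.47e-05). It fell by 1.39 and 0.90 from 3 to 6 weeks. Colgalt1, a collagen galactosyltransferase, rose by 0.41 and 0.35 at 3 weeks, whereas the prolyl hydroxylase P4ha1 fell by 0.56 and 0.51.

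Of 10 basement membrane receptors, 5 were called at 3 weeks in Fas+/+ mice (4 of them higher), as were 3, each higher, in Fas-/- mice. Beside these counts, 41.3% and 32% of all genes were called. Itga2, a collagen-binding integrin α chain, rose by 3.39 and 2.87, and Itga6, a laminin-binding integrin α chain, by 2.97 and 2.50. Itga2 was low in naive libraries (2.43 ± 0.576 CPM) and reached 25.6 ± 10.1 and 17.9 ± 17.9 CPM. Its Fas-/- libraries ran from 8.32 to 44.7 CPM. Itga6 reached 138 ± 57.4 and 99.3 ± 109 CPM, against 17.5 ± 4.43 CPM in naive libraries. The Fas-/- libraries alone ran from 39.9 to 263 CPM, and endothelial marker sums in that group from 849 to 10398 CPM. Without replicate 4 of that group the Fas-/- difference of Itga6 was 1.34 (adjusted p = 0.107), and with endothelial markers as a covariate the differences were -0.21 and -0.06. Their common partner Itgb1 rose by 0.32 and 0.21, the second call being lost in 5 of 8 fits without 1 library.

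The single-cell libraries place these transcripts by cell class. Of 13900 barcodes, 12059 passed the filters, from 603 in the naive library to 3240 in the Fas+/+ library at 6 weeks, with median UMIs per cell of 5768 to 8896. Of 11100 distinct barcodes kept, 543 occurred in 2 or more libraries. Keeping only the copy with the most UMIs would remove 959 cells, which hold 7.95% of cells and 0.819% of UMIs, and of the member levels by library or class it moved 1, that of Col4a2 in platelet-like cells, beyond its interval. Cells were grouped by clusters that were built without the members, and named only from marker lists. With 1 library for each condition there was no test between conditions, and the 95% Poisson intervals cover only counting error. Levels are given as UMIs per 1000000 UMIs of the cells named (UPM). Erythroid-like cells are given beside the other classes for comparison, as red cells should lack these transcripts. Their cluster, at a median of 1358 UMIs, was led by hemoglobin genes, but Igkc, Igha, Jchain, Lyz2 and Krt15 were also among its 10 top genes. It may therefore hold other cells, which need not lack these transcripts. Several classes lay below the erythroid-like cells, so the erythroid-like level is not the level of free RNA in every class.

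Despite the sort, 1809 cells were endothelial-like and 201 were alveolar type I-like, in a cluster that also held alveolar type II genes. Endothelial-like cells were 35.3% of the Fas+/+ library at 6 weeks and 1.49% to 9.01% of the others. The largest class was lipofibroblast-like (2442 cells), and 936 cells were profibrotic fibroblast-like.

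**Figure D4:**
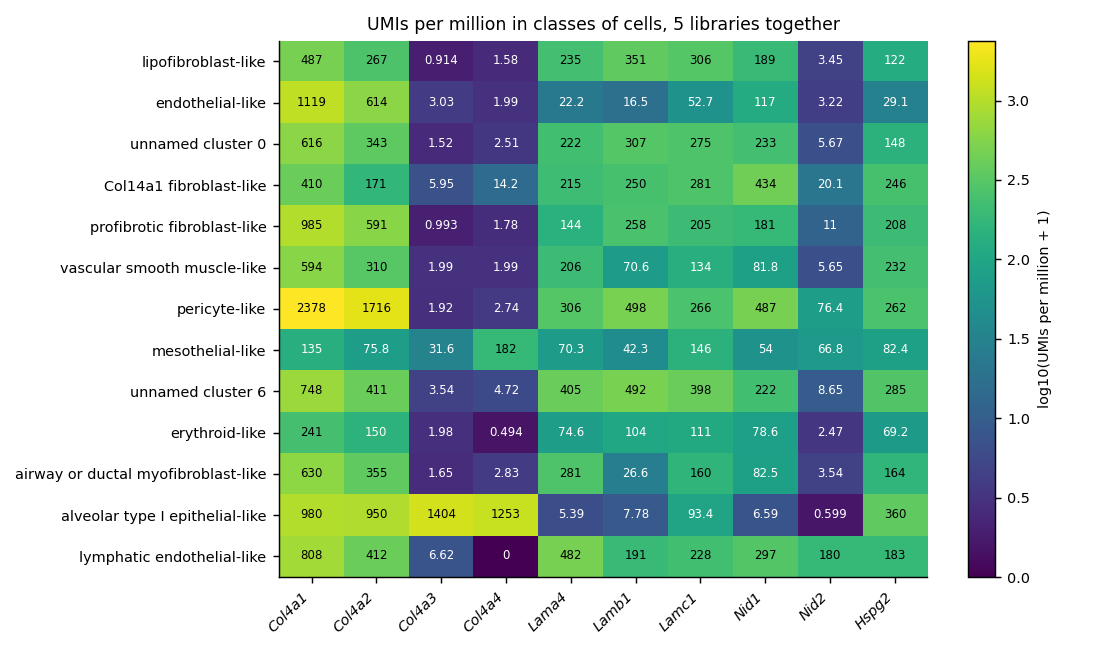
UPM of the 10 members in classes of cells, over the 5 libraries together. Colour is log10 of UPM plus 1 and the printed numbers are UPM; Col4a1 and Col4a2 are highest in pericyte-like cells, and Col4a3 and Col4a4 in alveolar type I-like cells.

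Col4a1 and Col4a2 were highest in pericyte-like cells. Col4a1 there reached 2378 UPM (interval 2329 to 2429), against 1119 in endothelial-like, 985 in profibrotic fibroblast-like and 980 in alveolar type I-like cells, 487 in lipofibroblast-like and 241 in erythroid-like cells. Mesothelial-like cells, at 135, were below the erythroid-like level. Of all Col4a1 UMIs, profibrotic fibroblast-like cells held 22.9%, an unnamed cluster led by Saa3 and Lcn2 17.3%, endothelial-like cells 14.4%, lipofibroblast-like cells 14.3% and pericyte-like cells 10.6%. A Col4a1 UMI was found in 92.8% of pericyte-like, 88.9% of endothelial-like and 27.3% of erythroid-like cells. Thinning to 3000 UMIs per cell left out cells with fewer UMIs. It kept 483 of 749 pericyte-like, 1396 of 1809 endothelial-like and 146 of 510 erythroid-like cells. Among these deeper cells, once thinned, the shares were 99.2%, 85.4% and 31.5%. Col4a2 stood at 1716 in pericyte-like and 950 in alveolar type I-like cells, with 150 in erythroid-like cells. Of cells with a Col4a1 UMI, 82.7% also had one of Col4a2, and of cells with a Col4a2 UMI 92.4% had one of Col4a1.

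Col4a3 and Col4a4 lay almost wholly in epithelial and mesothelial cells. Alveolar type I-like cells, 201 of 12059, held 82.8% of Col4a3 UMIs at 1404 UPM (1348 to 1462), and 52.4% of Col4a4 UMIs at 1253 (1199 to 1307). Mesothelial-like cells held 38.6% of Col4a4 at 182 UPM but 9.43% of Col4a3 at 31.6. Erythroid-like cells stood at 1.98 for Col4a3 and 0.494 for Col4a4, and Col4a3 in every other class was at most 6.62. Col4a4 was 14.2 (12.1 to 16.6) in Col14a1 fibroblast-like cells. At a finer clustering the epithelial cluster divided into 75 alveolar type I-like cells, with Col4a3 at 1779 and a UMI in 75 of 75 cells, and 126 alveolar type II-like cells, with Col4a3 at 614 and a UMI in 71. In mesothelial-like cells 91.1% of those with Col4a3 also had Col4a4, and 43.5% of those with Col4a4 had Col4a3.

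In alveolar type I-like cells the level of Col4a3 was 1319 (1240 to 1401) in the Fas+/+ library at 3 weeks, 1394 (1281 to 1515) in the Fas+/+ library at 6 weeks and 1436 (1307 to 1574) in the Fas-/- library at 6 weeks. The 3 intervals overlapped. The naive and 3-week Fas-/- libraries held 2 and 18 such cells and gave no level. Over all cells Col4a3 stood at 12.5 (naive), 43.8 (Fas+/+, 3 weeks), 19.3 (Fas-/-, 3 weeks), 18.9 (Fas+/+, 6 weeks) and 17.7 (Fas-/-, 6 weeks) UPM. Here the library with the most alveolar type I-like cells (77), not the 6-week Fas+/+ library, had the most. Outside endothelial, epithelial and blood classes, Col4a3 was 8.22, 4.93, 4.77, 3.32 and 3.79 in the same order. That set keeps the mesothelial-like cells, at 31.6 over all libraries together. Lipofibroblast-like and profibrotic fibroblast-like cells stood at 0.914 and 0.993.

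The 3 laminin chains were low in blood endothelial-like and epithelial cells. Lama4 was 482 UPM in lymphatic endothelial-like cells (95 cells), 405 in an unnamed cluster of 642 cells and 306 in pericyte-like cells. That cluster was shallow, at a median of 3209 UMIs, or 0.42 relative to the library median. Its best marker list, lipofibroblast, stood only 0.486 above other cells on the log2 scale. Its top genes included Gm26870, A230057D06Rik and Macf1, and whether it is a cell type was not tested. Lama4 was 281 in airway or ductal myofibroblast-like, 235 in lipofibroblast-like, 74.6 in erythroid-like, 22.2 in endothelial-like and 5.39 in alveolar type I-like cells. Lamb1 was 498 in pericyte-like cells, 492 in that unnamed cluster and 351 in lipofibroblast-like cells, with 104 in erythroid-like and 16.5 in endothelial-like cells. Lamc1 was 398 in that unnamed cluster, 306 in lipofibroblast-like and 281 in Col14a1 fibroblast-like cells, with 111 in erythroid-like and 52.7 in endothelial-like cells. In endothelial-like cells all 3 chains were therefore below the erythroid-like level.

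By library Lama4 was 231 in the naive library and 189, 185, 174 and 190 (3-week Fas+/+, 3-week Fas-/-, 6-week Fas+/+, 6-week Fas-/-). Within pericyte-like cells it was 250, 265, 293, 323 and 357, and within lipofibroblast-like cells 242, 217, 216, 273 and 238, in the order naive, then as above. In 8 classes compared between the 3-week Fas+/+ and naive libraries, the interval of its log2 ratio was below 0 in 1 class and held 0 in 7. For the 3-week Fas-/- library it was below 0 in 3 of 8 classes and held 0 in 5. Pericyte-like cells were 12.1% of cells in the naive and 6.57% in that Fas+/+ library, and held 5.76% and 3.55% of UMIs. Lipofibroblast-like cells held 33.3% and 25.2% of UMIs. The part of these shares in the Lama4 levels was not tested.

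Nid1 was highest in pericyte-like (487) and Col14a1 fibroblast-like cells (434), against 78.6 in erythroid-like cells. Nid2 was highest in lymphatic endothelial-like (180), pericyte-like (76.4) and mesothelial-like cells (66.8), against 2.47 in erythroid-like cells, and mesothelial-like cells held 32.4% of its UMIs. In the Fas-/- library at 3 weeks Nid2 was 9.31 over all cells, below the naive (16.4) and 3-week Fas+/+ (14.4) libraries. In mesothelial-like cells Nid2 was 37.1 there (177 cells), against 74.0 (only 24 cells) and 75.5 (151 cells). Hspg2 was 360 in alveolar type I-like cells, 285 in the unnamed cluster of 642 cells, 262 in pericyte-like, 246 in Col14a1 fibroblast-like and 208 in profibrotic fibroblast-like cells, against 69.2 in erythroid-like and 29.1 in endothelial-like cells.

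Over time the single-cell libraries ran opposite to the bulk libraries for Col4a1 and Col4a2. Over all cells Col4a1 was 446 UPM in the naive library, 462 and 522 at 3 weeks (Fas+/+ and Fas-/-) and 871 and 832 at 6 weeks. The log2 ratio of 6 to 3 weeks was 0.91 (0.88 to 0.94) in Fas+/+ and 0.67 (0.64 to 0.71) in Fas-/- libraries, where bulk fell by 0.85 and 0.56. Col4a2 was 237, 307, 340, 490 and 453 in the same order. Most classes showed it too: in profibrotic fibroblast-like cells Col4a1 was 580 and 620 at 3 weeks and 1056 and 1090 at 6 weeks, and in lipofibroblast-like cells 370 and 453, then 602 and 600. Pericyte-like cells were an exception in Fas-/- libraries, at 2037 and 2647 (Fas+/+ and Fas-/-), then 2494 and 2486. Of 12 classes compared in Fas+/+ libraries the interval was above 0 in 11, and of 11 in Fas-/- libraries in 9. Erythroid-like cells rose likewise, from 133 and 128 to 305 and 332. The profibrotic markers moved the same way, with summed UPM of 5545 and 7391 at 3 weeks and 15098 and 20766 at 6 weeks. Most other marker lists also ran opposite to bulk in Fas+/+ libraries from 3 to 6 weeks. Summed UPM went from 6151 to 3021 (lipofibroblast), 1355 to 534 (alveolar type I), 880 to 448 (mesothelial) and 8.5 to 56 (cycling cells). Bulk median log2 differences were 0.86, 1.47, 1.05 and -3.31. The airway or ductal myofibroblast, airway epithelial, platelet and Schwann lists did not run opposite. Single-cell levels by week of the other members carry this limit. The bulk and single-cell libraries are different preparations, and the reason for the difference was not tested.

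**Figure D5:**
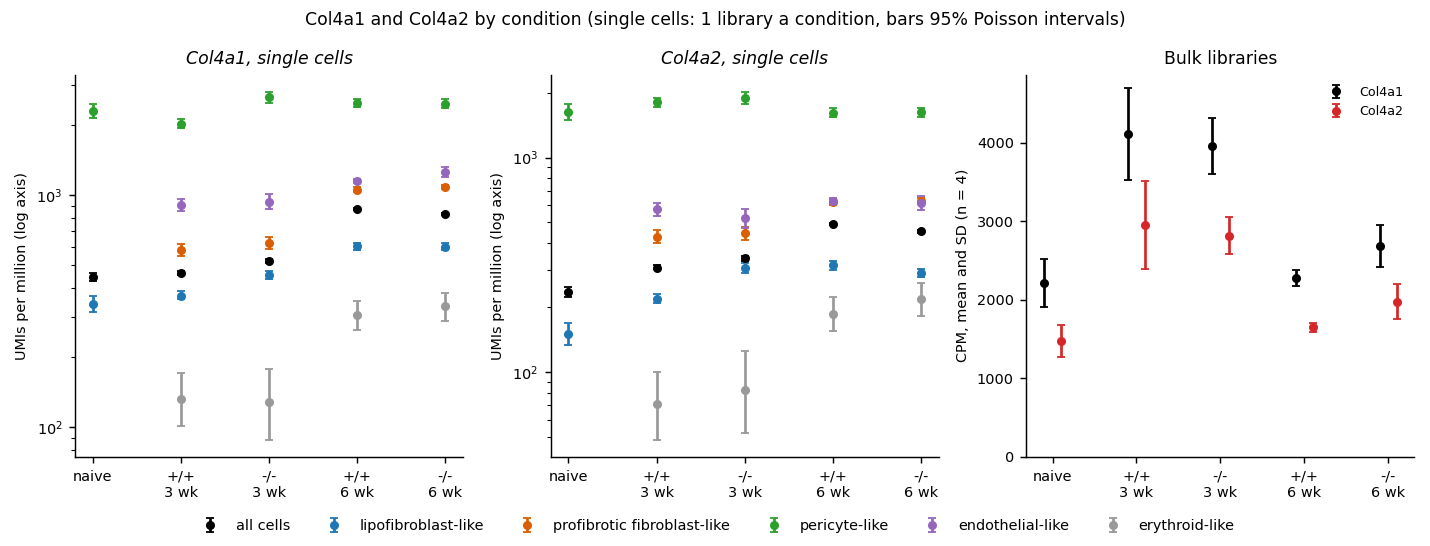
Col4a1 and Col4a2 in the 5 single-cell libraries, over all cells and in 5 classes (left and middle, UPM on a log axis, bars 95% Poisson intervals, classes with too few cells not drawn), and in bulk libraries (right, CPM, mean and SD of 4). Over all cells the single-cell levels are highest at 6 weeks, whereas the bulk levels are highest at 3 weeks.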

How the data were processed

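The authors deposited raw counts per gene for bulk RNA-seq, made by skewer (trimming), HISAT2 (alignment, GRCm38) and HTSeq (counting over Ensembl genes). For single cells they deposited Cell Ranger UMI counts on GRCm38. The authors' normalized bulk table was not used. Depth, and so the precision of counts, is given with the report.

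Members were the 10 genes named there. They and the further lists were chosen with earlier results of these data known. Besides members, at most the 3 called genes of smallest p were named from each further list in each comparison, and the 5 genes most correlated with Col4a1 and Col4a3; Hmcn1 was the 1 called in its comparison. An item that these rules would name is not reported here. Groups were taken from the labels. Counts were fitted with edgeR 4.0.16 (R 4.3.3; filterByExpr, minimum count 10; TMM; quasi-likelihood F test over all 20 libraries in 5 groups). Genes were called at an adjusted p of 0.05 (Benjamini-Hochberg over 15773 genes). Correlations used log2 CPM with a prior count of 2. Exact permutation tests of mean CPM were two-sided. Per the study's methods replicates are individual animals, while the labels tie no library to an animal. The chi-square per gene between replicates was 6.71 to 180, so each library counted as a separate one. At 3 weeks the pairs with Fas+/+ replicate 1 gave 159 to 171, and the other Fas+/+ pairs 7.76 to 18.0. Pairs with Fas-/- replicate 4 gave 135 to 180, and the other Fas-/- pairs 6.71 to 10.6. These libraries therefore stood apart from their groups over all genes. Steps were tested on simulated data.

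Barcodes were kept at 200 to 7500 genes and no more than 20% mitochondrial UMIs, then normalized with sctransform 0.4.2, integrated on 3000 features and 20 components with Seurat 5.3.0 and clustered at resolution 0.8, with 178 list genes left out. Classes needed at least 3 markers above the other cells. Scrublet in scanpy 1.11.5 called 0.406% of cells doublets, too few to have worked, so doublets were not removed. Free RNA was not subtracted. Intervals are exact (95%, scipy 1.17.1). Alternatives were DESeq2 1.42.0, RLE normalization, no filter, a fold limit, only the compared groups, a replicate block, marker covariates, and libraries or cells left out. RefSeq gave the promoter windows. Figures were drawn with matplotlib 3.10.9.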

Additional observations from a re-analysis of the deposited data

Results flagged for a closer look

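In 4 of 50 sets of 4 libraries (10 members in 5 groups), 1 library stood apart from the other 3 by Dixon's criterion, which chance alone gives in about 1 in 20 sets. Lamb1 was 812.517 CPM in replicate 4 of the Fas-/- group at 3 weeks, where the others ran from 1119.2 to 1180.01 CPM. Lamc1 was 1092.85 CPM in the same library, where the others ran from 1439.1 to 1480.76 CPM. Hspg2 was 1261.1 CPM in replicate 1 of the Fas+/+ group at 3 weeks, where the others ran from 2429.08 to 2578.69 CPM. These 2 libraries had the highest endothelial marker sums of their groups, 10398 and 11772 CPM. Nid2 was 56.7599 CPM in replicate 2 of the Fas-/- group at 6 weeks, above the 51.8983 to 52.5646 CPM of the others.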

How the results depend on the processing

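Among the 41 log2 differences of single members printed above, 344 values with 1 library left out gave 305 of the same call, 32 lost calls and 7 new ones, and 328 values under other settings gave 282, 17 and 19, with 10 reversals. These 10 came with marker covariates: with endothelial markers Col4a3 (-0.56) and Lamb1 (0.067) at 3 weeks in Fas+/+ mice; with epithelial markers Col4a3 (-1.22) and Lamb1 (0.14) in the same comparison, Col4a3 (-0.95) and Nid2 (0.052) at 3 weeks in Fas-/- mice, Col4a4 (-0.36), Lamc1 (0.086) and Nid1 (0.22) at 6 weeks in Fas+/+ mice and Col4a3 (-0.35) at 6 weeks in Fas-/- mice, all against naive. Of the other 49 member differences, none of them called, 34 reversed in at least 1 setting, 18 of them without a marker covariate (each at most 0.13 on the log2 scale in size). Among 24 printed differences of further genes, 192 values with 1 library left out gave 23 lost calls, and 190 under other settings 18 lost calls and 4 reversals: Itga6 with endothelial markers (-0.21 and -0.062 at 3 weeks in Fas+/+ and Fas-/- mice) and with epithelial markers (-0.72, Fas-/-), and Agrn with epithelial markers (-0.035). The covariates differ between groups, and the cause was not tested.

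Counts of members called changed by over 1.5 times as follows, with the share of all genes called under the same setting in brackets. DESeq2 called 2 at 6 weeks in Fas-/- mice against naive (10.1%) and 1 between genotypes at 6 weeks (Col4a3; 1.08%). An absolute log2 difference of at least 1 left 1 in each genotype at 3 weeks (15.5% and 11.7%), 0 at 6 weeks in Fas-/- mice (2.72%), and 2 (6.45%) and 0 (2.37%) from 3 to 6 weeks in Fas+/+ and Fas-/- mice. Endothelial markers as a covariate gave 2 at 6 weeks in Fas-/- mice against naive (9.19%). Epithelial markers as a covariate gave 2 at 3 weeks in Fas-/- mice (12.4%), 0 at 6 weeks in Fas+/+ mice (0.0634%) and 0 at 6 weeks in Fas-/- mice (3.35%). Without the 4 libraries of high endothelial markers 3 were called at 6 weeks in Fas-/- mice (Lama4, Col4a2 and Nid2; 11.7%), 2 between genotypes at 3 weeks (Lama4 and Nid2; 8.13%) and 8 from 3 to 6 weeks in Fas+/+ mice (37%).

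Under the omission of single libraries the counts against naive ran from 4 to 6 and 3 to 5 at 3 weeks in Fas+/+ and Fas-/- mice, and from 2 to 4 and 0 to 2 at 6 weeks. They ran from 0 to 0 between genotypes in either week, from 4 to 7 and 0 to 2 from 3 to 6 weeks, and from 0 to 1 in the interaction. The shares of all genes in these fits ran from 34.6% to 45.8% and 25.9% to 29.5% at 3 weeks against naive, 2.59% to 6.21% and 3.43% to 5.25% at 6 weeks, 0% to 3.64% and 0% to 0.125% between genotypes, 15.3% to 30.5% and 3.54% to 9.07% from 3 to 6 weeks, and 0% to 1.01% in the interaction.

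Replicate numbers showed no steady pairing of the libraries: over 2000 genes 13 of 40 same-numbered pairs had r over 0.1 (lowest -0.575, median 0.0287, highest 0.363). Pairs of unlike number were not set beside them, so this check cannot settle whether libraries were paired. With the replicate number as a block the counts were 5, 4, 2 and 1 against naive, 0 in each genotype comparison, 5 and 2 from 3 to 6 weeks and 0 in the interaction, beside 39.9%, 30.2%, 4.78%, 5.80%, 0.285%, 0%, 21.5%, 8.47% and 0.0190% of all genes in the same order. No gene was then called between genotypes at 6 weeks, Hmcn1 among them (0.64, adjusted p = 0.0703). Col4a3 at 3 weeks in Fas-/- mice (1.07, adjusted p = 0.0696) and Col4a4 at 6 weeks in Fas+/+ mice (1.22, adjusted p = 0.0703) lost their calls.

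For single cells, 138 of 150 levels by library and 345 of 360 by class stayed within their intervals under the other settings, among them leaving out the copies of shared barcodes, an alternative chosen after seeing the data. Leaving out the copies removed 0.819% of UMIs and leaving out called doublets 0.406% of cells, so these settings could hardly move a level by library. The other 12 levels by library moved when all deposited barcodes were used, out of 50 under that setting. Thinning to 3000 UMIs moved 147 of 170 comparisons of shares of cells with a UMI. It left out cells with fewer than 3000 UMIs, so the shares compared are not of the same cells. The erythroid-like levels rest on 4 UMIs of Col4a3 and 1 of Col4a4, so depth limits comparisons with them.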
